A study of Mus musculus with 6 samples.

Results

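Neutrophil granule and acute-phase genes are 10 of the 24391 genes counted in tumour-associated macrophages (TAMs, macrophages taken from a tumour) of mouse colorectal tumours. They are Elane and Prtn3 (early granules), Camp, Ngp, Ltf, Lcn2 and Olfm4 (specific granules), Retnlg (late in maturation), and Hp and Saa3 (acute phase). The members were chosen by symbol with their CCL5-/- against WT changes in these libraries already known, so for them that contrast is a description, from which nothing is concluded. All 10 are rows of the count table and of the FPKM table, and 9 passed the filter on low counts, the exception being Elane.

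The TAMs came from BALB/C mice and, by label, lacked the chemokine gene Ccl5 (CCL5-/-) or carried it (WT). The CD11b-high F4/80-low sort gate (F4/80low) had 2 CCL5-/- and 2 WT libraries with read counts, each genotype with a replicate 1 and a replicate 2. A second gate, F4/80-high and CD11b-low (F4/80hi), was represented by FPKM values (fragments per length and depth) of 1 library labelled CCL5-/- and 1 labelled WT. The labels give no age, no tumour model and no word on whether a library pooled animals, so the spread between replicates may be technical. Whether the tumour cells shared the genotype of the TAMs is not stated there.

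Neutrophils pack antimicrobial proteins into granules that are filled in sequence while the cell matures in the bone marrow. Azurophil granules with serine proteases come first, specific granules with lactoferrin and cathelicidin next, and gelatinase granules last. Most of this transcription stops before a neutrophil leaves the marrow, so granule transcripts are highest in immature neutrophils, while S100a8 and S100a9 stay abundant in mature ones and are also made by monocytes. Acute-phase genes are those induced by inflammatory cytokines, classically in the liver, and some of them are also made by neutrophils, macrophages, epithelium and fibroblasts.

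The members lie on 7 chromosomes, and Camp, Ngp and Ltf are near one another on mouse chromosome 9 (GRCm38, GENCODE M21). Camp is at 109847379 to 109849617 on the minus strand, Ngp at 110419747 to 110423012 and Ltf at 111019271 to 111042767, both on the plus strand. Gaps of 570 kb and 596 kb separate Camp from Ngp and Ngp from Ltf. Prtn3 (79874476 to 79883174) and Elane (79886247 to 79888215) are neighbours on chromosome 10, with 3.07 kb between them. Lcn2 is at 32384633 to 32388252 on chromosome 2, Saa3 at 46711998 to 46715700 on chromosome 7, Hp at 109575128 to 109579172 on chromosome 8, Olfm4 at 79984081 to 80023139 on chromosome 14 and Retnlg at 48872621 to 48874496 on chromosome 16.

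Promoter sequence is shown for some members, because factors of the C/EBP family are known drivers of specific granule and acute-phase genes. Whether such factors had a part in the members' changes was not tested. RefSeq promoters (GRCm38.p6) matched 9 of the 10 members, Hp being the other. A C/EBP core, TTGCNNAA or on the other strand TTNNGCAA, was searched in the 250 bases before each start. It occurred in Ngp, Ltf, Lcn2, Retnlg and Saa3, 5 of the 9, against 9.56% of 32851 promoters. The PU.1 core GAGGAA or TTCCTC occurred in Ltf, Lcn2, Elane, Prtn3 and Olfm4, 5 of the 9, against 23.3%. A match is a description of letters only. Capitals below mark the C/EBP core in 3 specific granule genes and Saa3, and Camp, which has none in this window, is shown because its change was the largest of the members.

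Ngp (chr9:110419558-110419807, plus strand): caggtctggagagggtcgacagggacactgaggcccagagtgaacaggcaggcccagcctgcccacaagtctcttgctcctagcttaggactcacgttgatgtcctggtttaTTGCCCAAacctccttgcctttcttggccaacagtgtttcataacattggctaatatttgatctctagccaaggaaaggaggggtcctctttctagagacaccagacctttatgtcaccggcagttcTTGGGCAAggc
Ltf (chr9:111019042-111019291, plus strand): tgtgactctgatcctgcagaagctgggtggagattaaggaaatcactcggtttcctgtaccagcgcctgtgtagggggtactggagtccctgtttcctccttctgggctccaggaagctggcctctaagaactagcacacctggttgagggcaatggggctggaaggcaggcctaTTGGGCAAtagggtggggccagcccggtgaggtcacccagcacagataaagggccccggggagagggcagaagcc
Lcn2 (chr2:32387740-32387989, minus strand): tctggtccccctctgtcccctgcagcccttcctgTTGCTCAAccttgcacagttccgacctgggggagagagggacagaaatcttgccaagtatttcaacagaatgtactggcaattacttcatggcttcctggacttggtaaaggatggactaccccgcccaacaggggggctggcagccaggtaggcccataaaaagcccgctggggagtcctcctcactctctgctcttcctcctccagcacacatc
Saa3 (chr7:46715677-46715926, minus strand): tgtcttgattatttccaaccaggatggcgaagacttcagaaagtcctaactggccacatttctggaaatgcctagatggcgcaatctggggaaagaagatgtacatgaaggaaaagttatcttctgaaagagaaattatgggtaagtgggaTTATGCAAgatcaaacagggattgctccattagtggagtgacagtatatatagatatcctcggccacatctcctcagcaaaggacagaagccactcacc
Camp (chr9:109849457-109849706, minus strand): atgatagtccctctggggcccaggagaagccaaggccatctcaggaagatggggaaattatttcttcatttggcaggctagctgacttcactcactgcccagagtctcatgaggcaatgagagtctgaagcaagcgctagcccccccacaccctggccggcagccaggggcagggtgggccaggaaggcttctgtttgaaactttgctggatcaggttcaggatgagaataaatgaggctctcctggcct

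In Ngp the cores begin 138 and 11 bases before the start, in Ltf 75, in Lcn2 216 and in Saa3 99 bases before it. All 5 printed windows run 5′ to 3′ on the gene's own strand and end at the base before the RefSeq start. That start lies inside the span of the GENCODE gene for each of the 5, so the Lcn2 window lies wholly, and the other 4 partly, within the loci given above.

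Before the members' values, limits of the libraries are given. Total counts ranged from 9280635 to 22411342, and Rn45s, the ribosomal RNA precursor, took 50.03% and 58.4% of them in CCL5-/- and WT replicate 1, against 1.38% and 0.844% in the replicates 2. One read was worth 0.033 to 0.172 CPM (reads of a gene relative to all reads of its library, scaled by trimmed mean of M values, TMM). Ccl5 itself had 35 and 82 reads in CCL5-/- replicates 1 and 2, against 255 and 3976 in WT. Macrophage markers were present, with Csf1r at 126 to 210 CPM and C1qa at 214 to 628 CPM over the 4 libraries. The F4/80hi FPKM ratios matched the replicate 1 libraries of F4/80low within sampling noise, as described at the end, so 4 libraries are counted and not 6. In bulk RNA, fewer neutrophils among the sorted cells and less RNA per cell cannot be told apart.

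Every member had its highest level in WT replicate 1, and 9 of 10 had their lowest in CCL5-/- replicate 2, Saa3 being lowest in CCL5-/- replicate 1. For Elane, with 0 or 1 reads in each library, this order rests on single reads. Summed over the members the level was 92.2 and 26.4 CPM in CCL5-/- replicates 1 and 2, and 656 and 58.2 CPM in WT. Per length of transcript, Retnlg ranked first and Hp second of the 10 in each of the 4 libraries, and Elane last.

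**Figure D1:**
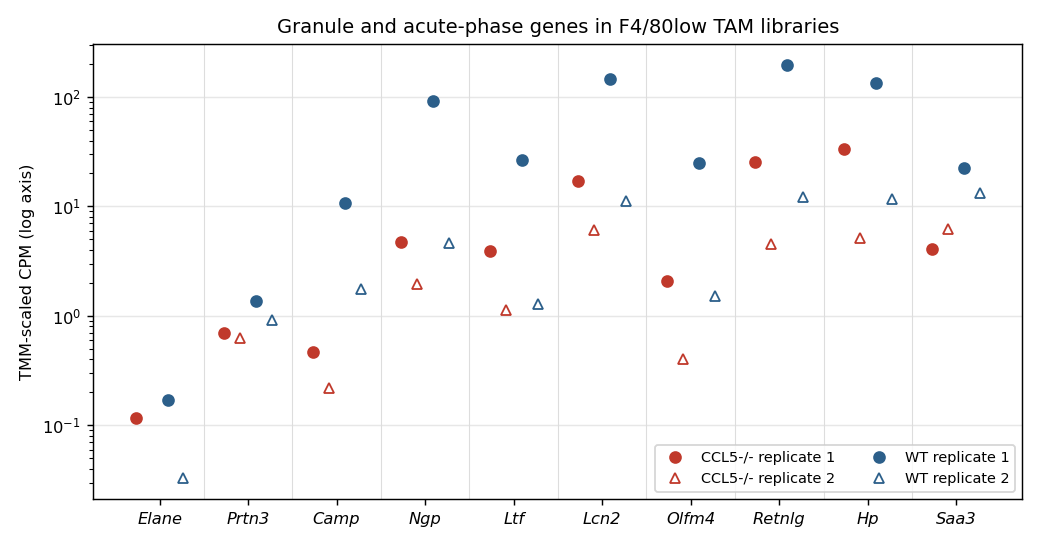
TMM-scaled CPM of each member (log axis) in the 2 CCL5-/- and 2 WT F4/80low libraries, 1 point a library; a level of 0 (Elane in CCL5-/- replicate 2) is not drawn. WT replicate 1 is the highest point for all 10 members, though Elane had only 1 read there.

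Among the specific granule genes, Camp encodes the cathelicidin precursor, an antimicrobial peptide. It had 4 and 6 reads in CCL5-/- replicates 1 and 2, against 63 and 54 reads in WT. Its level was 0.343 ± 0.173 CPM in CCL5-/- and 6.30 ± 6.40 CPM in WT (mean ± SD, n = 2 each), and the genotypes did not overlap. The log2 change was -4.26 (SE 1.12). Within same-numbered libraries it was -4.54 in the replicate 1 pair (95% interval -6.46 to -3.11) and -3.01 in the replicate 2 pair (-4.52 to -1.79), the lowest of the members in both. These intervals are exact binomial and cover counting error only.

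Ngp encodes neutrophilic granule protein, a small protein of the same granules. It had 41 and 53 reads in CCL5-/- replicates 1 and 2, against 538 and 140 reads in WT. The levels were 4.77 and 1.95 CPM in CCL5-/- and 92.4 and 4.602 CPM in WT, so CCL5-/- replicate 1 lay just above WT replicate 2. The log2 change was -3.88 (SE 1.42), made of -4.28 (-4.77 to -3.82) in the replicate 1 pair and -1.24 (-1.73 to -0.78) in the replicate 2 pair.

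Ltf encodes lactoferrin, an iron-binding protein. It had 34 and 31 reads in CCL5-/- replicates 1 and 2, against 155 and 39 reads in WT. The log2 change of -2.48 (SE 1.42) came from the replicate 1 pair, with -2.75 (-3.33 to -2.21). In the replicate 2 pair it was -0.17 (-0.90 to 0.55), within counting error of no change.

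Lcn2 encodes lipocalin 2, which withholds iron by binding bacterial siderophores and is also made by epithelium and macrophages. It had 146 and 166 reads in CCL5-/- replicates 1 and 2, against 851 and 338 reads in WT. Its log2 change was -2.78 (SE 1.23), with -3.11 (-3.37 to -2.85) in the replicate 1 pair and -0.87 (-1.14 to -0.59) in the replicate 2 pair.

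Olfm4, which encodes olfactomedin 4, a glycoprotein found in the specific granules of a subset of neutrophils, had 18 and 11 reads in CCL5-/- replicates 1 and 2, against 145 and 46 reads in WT. Its log2 change was -3.49 (SE 1.49), with -3.57 (-4.37 to -2.86) and -1.90 (-3.00 to -0.93) in the pairs. The level in CCL5-/- replicate 1, 2.09 CPM, was above the 1.51 CPM of WT replicate 2, as for Ngp, Ltf and Lcn2. Of the 5 specific granule members, Camp alone had CCL5-/- and WT levels that did not overlap.

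**Figure D2:**
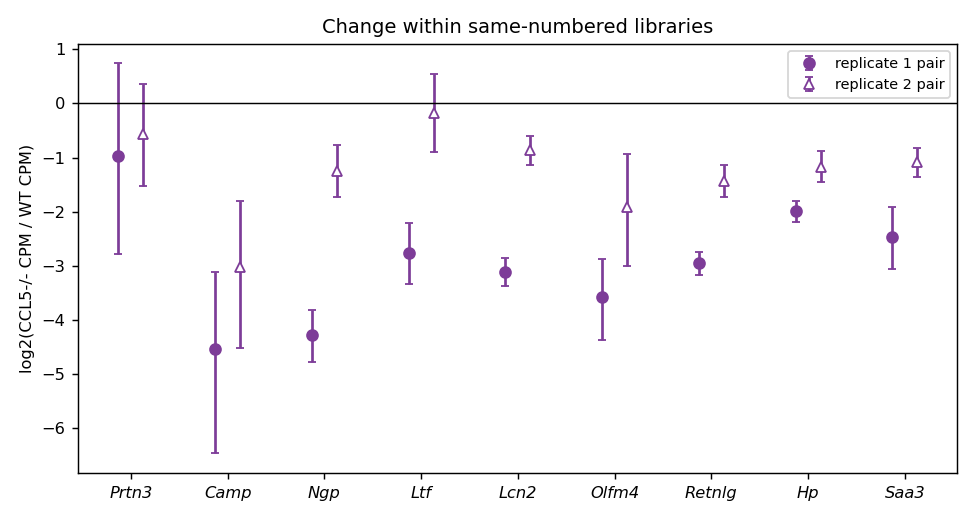
The log2 ratio of CCL5-/- over WT CPM of 9 members (Elane has too few reads) within the replicate 1 pair (filled circles) and the replicate 2 pair (open triangles); bars are exact binomial 95% intervals for counting error. All 18 ratios lie below 0, and 3 intervals reach it, those of Prtn3 in both pairs and of Ltf in the replicate 2 pair.

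The early granule genes gave little signal. Elane encodes neutrophil elastase and had 1 and 0 reads in CCL5-/- replicates 1 and 2, against 1 and 1 in WT, which is under the 3 reads taken as the floor, so no fold is given. Prtn3 encodes proteinase 3 and had 6 and 17 reads in CCL5-/- against 8 and 28 in WT. Its levels of 0.697 and 0.624 CPM in CCL5-/- were below the 1.37 and 0.920 CPM of WT, but the intervals included 0 in the replicate 1 pair (-2.78 to 0.74) and in the replicate 2 pair (-1.52 to 0.36). Other azurophil genes were as scarce. Ctsg (cathepsin G) had 10 and 31 reads in CCL5-/- against 11 and 55 in WT, Mpo (myeloperoxidase) had 0 and 5 against 2 and 5, and Ms4a3 had 0 and 0 against 1 and 5.

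Retnlg encodes a resistin-like protein that is abundant in mouse neutrophils, and of the members it had the most reads in WT replicate 1. It had 220 and 123 reads in CCL5-/- replicates 1 and 2, against 1149 and 370 reads in WT. The levels were 25.6 and 4.52 CPM in CCL5-/- and 197 and 12.2 CPM in WT. Its log2 change was -2.81 (SE 1.43), with -2.95 (-3.16 to -2.74) and -1.43 (-1.74 to -1.13) in the pairs.

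The acute-phase members are Saa3 and Hp. Saa3, a serum amyloid A made outside the liver by macrophages and stromal cells, had 35 and 170 reads in CCL5-/- replicates 1 and 2, against 131 and 402 reads in WT. Its levels of 5.16 ± 1.54 CPM in CCL5-/- and 17.9 ± 6.57 CPM in WT (mean ± SD, n = 2 each) did not overlap. The log2 change was -1.77 with an SE of 0.47, the smallest of the members, and -2.47 (-3.05 to -1.92) and -1.08 (-1.35 to -0.82) in the pairs. Hp encodes haptoglobin, which binds free haemoglobin and is stored in neutrophil granules as well as made by hepatocytes. It had 288 and 141 reads in CCL5-/- replicates 1 and 2, against 776 and 353 in WT, a log2 change of -1.91 (SE 1.32), and -1.99 (-2.19 to -1.80) and -1.16 (-1.46 to -0.88) in the pairs.

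Hepatocyte markers moved with 1 of the libraries that Hp rests on. All 12 of the list had more than 3 reads in CCL5-/- replicate 1, against 3 in CCL5-/- replicate 2, 2 in WT replicate 1 and 3 in WT replicate 2. Leaving out Trf, which macrophages also express, the other 11 summed to 142 and 0.624 CPM in CCL5-/- replicates 1 and 2, and to 1.72 and 1.15 CPM in WT. Alb, the albumin gene that defines hepatocytes, had 653 and 0 reads in CCL5-/- and 0 and 1 in WT. The liver-type serum amyloids Saa1 and Saa2 each had 11 reads in CCL5-/- replicate 1, and 0 to 3 elsewhere. What part of the Hp level in CCL5-/- replicate 1 came with these transcripts was not tested. In the replicate 2 pair, where Alb had 0 and 1 reads, Hp was 2.24-fold lower in CCL5-/-. The fitted log2 change of Hp was -3.74 without CCL5-/- replicate 1 and 0.72 without WT replicate 1. Both of these fits mix genotype with replicate number. Reads of Saa3 may also be shared with its paralogs, since how the counting treated them is not given.

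Read as counts, 9 of the 9 members tested were lower in CCL5-/- in both pairs, beside 26.5% of the 12710 genes tested. The levels of 3 members (Camp, Prtn3 and Saa3) did not overlap between genotypes with CCL5-/- lower, beside 8.24% of all genes. Since the members were chosen with this contrast known, nothing is read from either count. Their median log2 change was -2.78, beside -0.01 over all genes. Without WT replicate 1 that median was -0.34, and the changes of Ltf (0.96), Hp (0.72), Retnlg (0.29) and Lcn2 (0.05) were then above 0. Camp was at -2.43, Saa3 at -1.33, Ngp and Prtn3 at -0.47 and Olfm4 at -0.34. That fit sets both CCL5-/- libraries against WT replicate 2 alone, and so mixes genotype with replicate number. In the replicate 2 pair the median was -1.16, with Ltf at -0.17, Hp at -1.16, Retnlg at -1.43 and Lcn2 at -0.87.

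In the fit without a term for replicate number, edgeR called 0 of 12710 genes (0.00%) and so 0 members; 41 genes had an unadjusted p under 0.05. On the same design DESeq2 called 1 gene, Ccl5, and limma-voom 0. With the replicate number in the fit, edgeR called 10 genes, all lower in CCL5-/- (0.0787%), among them Camp, Olfm4 and Hp. Nothing is read from these calls either, because the contrast chose the members. The log2 changes in that fit were -3.72 (SE 0.61) for Camp, -2.87 (SE 0.46) for Olfm4 and -1.60 (SE 0.25) for Hp.

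How the members varied between replicate numbers was tested too. Every member was highest in WT replicate 1, a library that also weighs on the contrast that chose them. The p-values and counts below are therefore not independent of that choice. With genotype in the fit, 5 members were lower in replicate 2 than in replicate 1 at an adjusted p under 0.05 in edgeR, beside 18.0% of all genes, and 0 were higher. By log2 change, Hp stood at -3.13 (SE 0.26, edgeR adjusted p = 1.7e-06), Olfm4 at -3.47 (SE 0.46, edgeR adjusted p = 7.9e-05) and Retnlg at -3.31 (SE 0.37, edgeR adjusted p = 0.00031). Ltf had -3.23 (SE 0.63, edgeR adjusted p = 0.0093) and Camp -2.19 (SE 0.60, edgeR adjusted p = 0.012). Hepatocyte markers were high in CCL5-/- replicate 1 only, and their part in this change of Hp was not tested. Within WT libraries, where Alb had 0 and 1 reads, Hp was at -3.52. The levels of 6 members did not overlap between replicate numbers with replicate 2 lower, beside 34.0% of all genes.

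Ngp (-3.12, SE 1.17, edgeR adjusted p = 0.217) and Lcn2 (-2.67, SE 0.72, edgeR adjusted p = 0.085) did not pass. These 2 depended on the method. Lcn2 passed in DESeq2 (adjusted p = 0.037), in limma-voom (adjusted p = 5.2e-06) and in edgeR with no filter (adjusted p = 2.9e-06), and its adjusted p ranged up to 0.251 over the alternatives. Ngp passed in limma-voom (adjusted p = 2.3e-06), with a range up to 0.414. Prtn3 (-0.38, SE 0.73, edgeR adjusted p = 0.726) and Saa3 (-0.16, SE 0.33, edgeR adjusted p = 0.746) had the changes nearest 0. The acute-phase pair thus parted here, Hp being lower in replicate 2 and Saa3 having 6.24 and 13.2 CPM in replicate 2 of CCL5-/- and WT, against 4.07 and 22.5 CPM in replicate 1.

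With genotype left out of the fit 0 members passed in edgeR, the lowest adjusted p being 0.071 for Ltf. That fit gave Hp -3.30, Ltf -3.62, Retnlg -3.73, Olfm4 -3.75, Lcn2 -3.23, Ngp -3.86, Camp -2.42 and Saa3 -0.40. The size of the changes depended on WT replicate 1. With that library left out too, the change came to -1.97 for Hp, -1.68 for Ltf and -1.60 for Retnlg. Olfm4 then had -1.10, Lcn2 -0.96 and Ngp -0.52, and Camp (1.12), Saa3 (1.28) and Prtn3 (0.17) were above 0. This last fit sets both replicates 2 against CCL5-/- replicate 1 alone, and so mixes genotype with replicate number. Within CCL5-/- libraries Camp was at -1.08, Prtn3 at -0.16 and Saa3 at 0.62. Rn45s moved with this contrast, with the shares given above, and its part in the members' difference was not tested. The sort gate of the replicate 1 libraries is not settled, as described at the end. A difference of gate therefore cannot be told apart from one of replicate number.

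The change between replicate numbers was smaller in size within CCL5-/- than within WT for all 9 members with enough reads. Retnlg had a log2 change of -2.50 in CCL5-/- and -4.02 in WT, Hp -2.69 and -3.52, and Ngp -1.29 and -4.33. Saa3 had 0.62 in CCL5-/- and -0.77 in WT, in opposite directions. With 1 library per cell of the design, the difference between the genotypes in this respect was not tested.

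**Figure D3:**
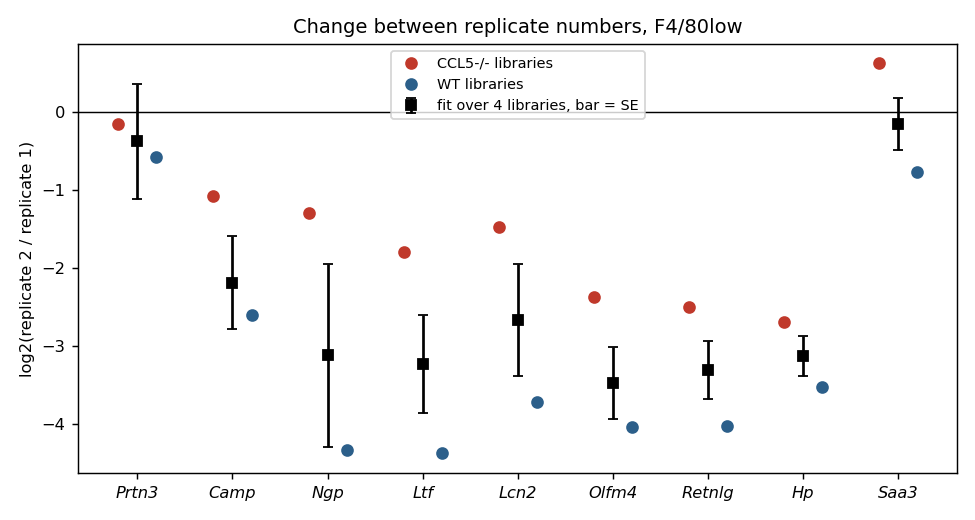
The log2 change of replicate 2 over replicate 1 for 9 members, within CCL5-/- libraries (red), within WT libraries (blue) and in the edgeR fit over 4 libraries (black, bar = SE). Prtn3 and Saa3 lie nearest 0 and the other 7 fitted values lie below -2.

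Setting members against other neutrophil transcripts of the same library removes the scaling between libraries. S100a9 was used for this, with S100a8 and Csf3r (the G-CSF receptor) as alternatives, all 3 chosen after the values were seen. Camp had 1.30 and 1.12 reads per 1000 S100a9 reads in CCL5-/- replicates 1 and 2, against 5.90 and 4.85 in WT. The log2 ratio was -2.18 (-4.10 to -0.76) and -2.12 (-3.62 to -0.90) in the pairs. Camp was lower in CCL5-/- without overlap against S100a9, S100a8 and Csf3r alike, and it was the only member of which this held for all 3.

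Ngp had 13.3 and 9.88 reads per 1000 S100a9 reads in CCL5-/-, against 50.4 and 12.6 in WT, and Olfm4 had 5.84 and 2.05 against 13.6 and 4.13. Both overlapped between genotypes against S100a9 and did not against S100a8 or Csf3r. Retnlg had 71.4 and 22.9 against 108 and 33.2, with log2 ratios of -0.59 (-0.81 to -0.38) and -0.53 (-0.84 to -0.24) in the pairs.

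The remaining members differed among themselves. Lcn2 had 47.4 and 30.9 reads per 1000 S100a9 reads in CCL5-/-, against 79.7 and 30.3 in WT, with log2 ratios of -0.75 (-1.01 to -0.49) and 0.03 (-0.25 to 0.30) in the pairs. Prtn3 had 1.95 and 3.17 against 0.749 and 2.51, with ratios of 1.38 and 0.33 whose intervals included 0. Ltf had 11.0 and 5.78 reads per 1000 S100a9 reads in CCL5-/-, against 14.5 and 3.50 in WT, with intervals that included 0 in the replicate 1 pair (-0.98 to 0.15) and in the replicate 2 pair (-0.01 to 1.44). Saa3 had 11.4 and 31.7 against 12.3 and 36.1, also within counting error in both pairs. Hp had 93.5 and 26.3 against 72.7 and 31.7, higher in CCL5-/- in the replicate 1 pair (0.36, 0.16 to 0.56), where the hepatocyte markers stood, and at -0.27 (-0.56 to 0.02) in the replicate 2 pair. These ratios come from the contrast that chose the members and are a description only.

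**Figure D4:**
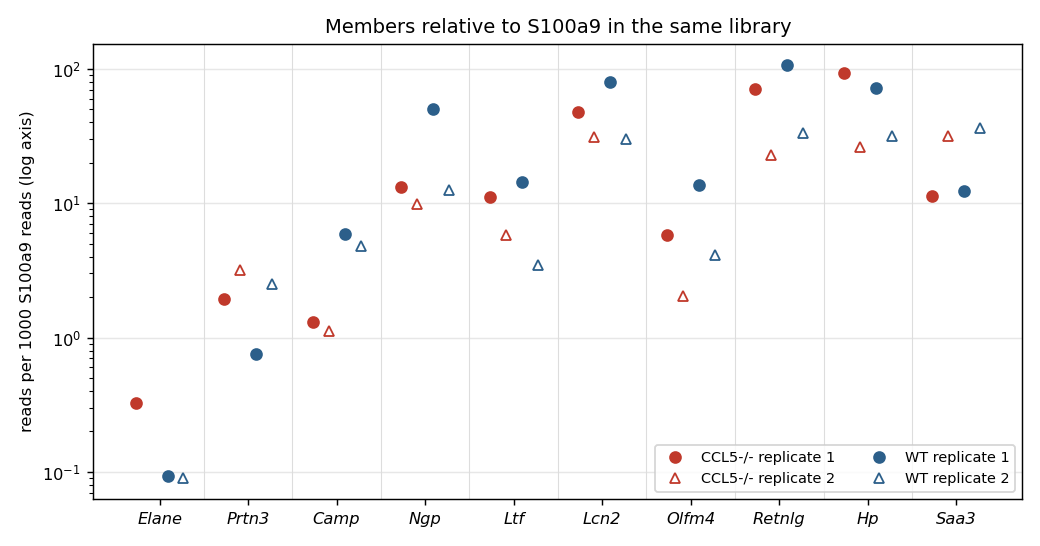
Reads of each member per 1000 S100a9 reads (log axis) in the 2 CCL5-/- and 2 WT F4/80low libraries; Elane in CCL5-/- replicate 2 is at 0 and not drawn. Camp has both CCL5-/- points (1.30 and 1.12) below both WT points (5.90 and 4.85).

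The wider lists of the same compartments give the surroundings, but some of them hold members too. Camp, Ngp, Ltf, Lcn2, Olfm4 and Hp are among the specific granule genes, Retnlg among the gelatinase granule genes and Prtn3 among the azurophil genes. The choice of members thus enters the counts and medians of those lists, and nothing is read from them. The median over all genes was -0.01. In the fit without the replicate number edgeR called 0 genes of every list. Of 12 specific granule genes tested, 10 were lower and 2 higher in CCL5-/- (median log2 change -1.996), the 2 being Anxa3 (0.21) and Ptx3 (0.16); besides members, Chil3, a chitinase-like protein also made by macrophages, was at -1.37. Of 7 gelatinase granule and secretory vesicle genes all were lower, but with a median of -0.68, and Adam8 (-0.27), Fpr2 (-0.77), Slc11a1 (-0.40) and Mmp9 (-0.55) led them in level. Of 10 mature neutrophil genes all were lower (median -1.34), with Il1b at -0.47, S100a9 at -1.99 (SE 0.88), S100a8 at -2.22 (SE 1.08) and Mxd1 at -0.87. Both azurophil genes tested, Prtn3 and Ctsg, were lower (median -0.72).

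Of 10 acute-phase genes tested 6 were lower and 4 higher (median -0.23), Cp (ceruloplasmin) being at -0.11. The 6 lower genes include the members Hp, Saa3 and Lcn2, which were chosen with this contrast known. Of 8 regulators of granulopoiesis 7 were lower (median -0.26). Cebpe, which encodes a C/EBP factor needed for specific granules, had 15 and 28 reads in CCL5-/- replicates 1 and 2, against 10 and 49 in WT, a log2 change of -0.28 (SE 0.65), and the more abundant Cebpb, Spi1, Cebpd and Runx1 had -0.22, -0.52, 0.28 and -0.05.

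Markers of other cells were as follows. Macrophage and monocyte genes had -0.21 (11 of 12 lower) and summed to 2295 and 2247 CPM in CCL5-/- replicates 1 and 2, and 2334 and 3297 CPM in WT. Epithelial genes had 0.35 (2 of 6 lower) and summed to 116 and 106 CPM in CCL5-/- and 183 and 103 CPM in WT. Krt20 was the largest part, with 87.1 and 74.1 CPM in CCL5-/- and 149 and 84.9 CPM in WT. Fibroblast genes had -0.13 (6 of 8 lower) and summed to 2795 and 2073 CPM in CCL5-/- and 3490 and 1612 CPM in WT. Here Fn1 was the largest part, with 2092 and 1026 CPM in CCL5-/- and 2693 and 723 CPM in WT. These sums thus lean on 1 gene each. Epithelial cells and fibroblasts can both make Lcn2 and Saa3, and their part in those levels was not tested. Lymphocyte genes had -0.28 (6 of 7 lower), eosinophil and mast cell genes 0.02 (0 of 3 lower), and the 2 hepatocyte genes tested 1.80 (1 of 2 lower).

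The genes whose profile over the 4 libraries lay nearest the members' median profile, of 11002 non-members with a mean log2 CPM of at least 1, were BC100530, Wfdc21, Asprv1, Chil1 and Stfa2l1. The distance, in centred log2 CPM, was 0.15 for BC100530, a stefin A family gene, and 0.34 for Wfdc21, and 0.37, 0.43 and 0.48 for the other 3. Among the members themselves Lcn2 lay nearest (0.28) and Prtn3 (2.88) and Saa3 (2.65) farthest. With 4 libraries this is a description of likeness only.

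The F4/80hi table gave the members in 1 library per label, with no replicate check. The sample titles name the opposite genotype on each library, and Ccl5 went against the labels, with 145 FPKM under the CCL5-/- label and 15.7 FPKM under the WT label. Retnlg was listed at 784 FPKM under the CCL5-/- label and 90.3 FPKM under the WT label, Lcn2 at 222 and 26.1, and Ngp at 128 and 6.56. Hp was at 109 and 28.6 FPKM, Saa3 at 56.8 and 9.96, Camp at 24.0 and 1.17, Olfm4 at 22.0 and 1.84, and Ltf at 13.2 and 1.78. On the log2((FPKM + 1)/(FPKM + 1)) scale, which understates low genes, 8 of the 9 members that reached 1 FPKM in 1 library or both were at least 2-fold higher in the library labelled CCL5-/-, beside 2.35% of 11670 genes. Titles in place of labels would turn each sign. As described below, the ratios matched those of the F4/80low replicate 1 pair, which is part of the contrast that chose the members. Nothing is therefore read from the count of 8. Prtn3 (1.88 and 0.737 FPKM) and Elane (0.253 and a listed 0) share 1 merged locus in that table, with upper bounds up to 119 FPKM for Prtn3, and cannot be placed.

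Whether these are separate libraries was checked. The ratio of FPKM between the libraries labelled CCL5-/- and WT was used to split the reads that F4/80low CCL5-/- replicate 1 and WT replicate 1 hold together. The median chi-square was 0.334 for 6677 genes of 20 to 400 reads, below the 0.455 of independent reads. Any of 11 other assignments of F4/80low libraries gave 3.58 to 8.94. For Ngp 40.3 reads were expected in CCL5-/- replicate 1 and 41 were counted, for Lcn2 146.3 and 146, for Hp 294 and 288, and for Camp 4.46 and 4. Retnlg had the widest gap, 197 expected and 220 counted, 1.75 counting SDs. The ratio between the libraries labelled F4/80hi WT and CCL5-/- thus differed by less than the sampling noise from a replicate 1 ratio. That was the ratio of F4/80low CCL5-/- replicate 1 over WT replicate 1. Only ratios were compared, so a difference common to both F4/80hi libraries would cancel. The library labelled F4/80hi WT was counted as 1 sample with F4/80low CCL5-/- replicate 1. The one labelled F4/80hi CCL5-/- was counted as 1 sample with F4/80low WT replicate 1. Which sort gate they came from is not settled by the files.

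**Figure D5:**
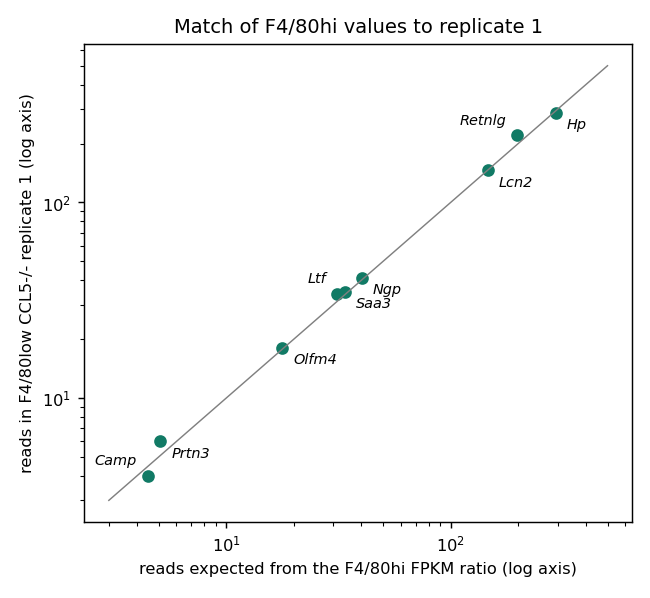
Reads counted in F4/80low CCL5-/- replicate 1 (vertical, log axis) against the reads expected there from the ratio of F4/80hi FPKM values (horizontal, log axis) for 9 members; the line marks equality. All 9 lie within 1.75 counting SDs of the line.

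The authors' deposited table gives a log2 fold change below 0 for each of the 10 members. In the authors' deposited table the log2 fold change was -0.75 for Camp, -0.70 for Ngp, -0.63 for Lcn2, -0.55 for Olfm4 and Retnlg, -0.44 for Ltf, -0.42 for Hp, -0.79 for Saa3, -0.14 for Prtn3 and -0.02 for Elane. The authors' deposited table gives each of the 10 an adjusted p of 1.0. No header or label says how the changes in that table were scaled, so the sizes are not compared with those above.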

How the data were processed

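RNA of 6 deposited libraries was analysed, 4 from the F4/80low gate and 2 from the F4/80hi gate. Trizol extraction and a TruSeq RNA LT V2 kit were used, per the labels' protocols. The authors deposited raw counts per gene for F4/80low. Their comparison table, per the file headers, holds normalised signal (deposited counts divided by 1 constant factor per library), log2 fold changes with standard errors, a score (the test statistic), p-values and adjusted p-values. The F4/80hi table holds the authors' FPKM with lower and upper bounds, and its depth is unknown. The submitters' processing notes name Cufflinks 2.2.1, TopHat2 2.1.1, STAR, HTSeq, DESeq2, cutadapt, FastQC and bcl2fastq 2.17.1.14, and list mouse and human builds with no role. Which tool made which table, and strand use, are not given in the sources used here. Loci of the members in the FPKM table overlap their GRCm38 genes; those of Prtn3 and Elane are merged.

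Groups follow the labels. All counts were filtered by filterByExpr, scaled by TMM and fitted in R 4.3.3 by edgeR 4.0.16 (robust quasi-likelihood, two-sided F test); p-values were adjusted by Benjamini and Hochberg's method across 12710 genes, and 0.05 was the threshold. The fits were checked on simulated counts with a fixed dispersion and changes in a chosen set of genes only. That check does not show how the fits behave under the wide replicate differences of these libraries. DESeq2 1.42.0, limma-voom 3.58.1, other size factors, no filter, Rn45s left out, the replicate number and each library left out were alternatives. The SE is the log2 change divided by the square root of F. No row lacked a gene name. Levels per length used the union of GENCODE M21 exons. All 10 members are named, list genes by highest level, up to 4 a list, Ccl5 and Rn45s as checks, and the 5 genes nearest the members in profile; Ptx3, Saa1, Saa2, Cebpe, Csf1r and Csf3r were added after their values were seen. Members and lists were chosen with earlier results of these data known.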

Additional observations from a re-analysis of the deposited data

Results flagged for a closer look

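By label, 9 members ran in opposite directions in the 2 gates, lower in CCL5-/- in both F4/80low pairs and higher in the F4/80hi library labelled CCL5-/-. The F4/80hi log2 changes were 3.52 for Camp, 4.10 for Ngp, 2.35 for Ltf, 3.04 for Lcn2 and 3.02 for Olfm4. They were 0.73 for Prtn3, 3.10 for Retnlg, 1.90 for Hp and 2.40 for Saa3. The difference was not tested, since F4/80hi has 1 library per label, and the titles of those libraries name the opposite genotypes. The F4/80hi ratios matched those of F4/80low replicate 1 with the labels exchanged, within sampling noise (median chi-square 0.334). They are therefore taken as the replicate 1 difference read with its sign turned, and not as an independent measurement of another gate.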

How the results depend on the processing

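Labels share replicate numbers but do not say that a number pairs libraries; deviations of same-numbered libraries from their genotype mean correlated at 0.73 across genes. With the replicate block edgeR called 10 genes in CCL5-/- against WT, and, in fits chosen after seeing the data, DESeq2 called 25 and limma-voom 47, in place of 0. Without the block DESeq2 called 1 gene. Leaving out 1 library gave 0 to 4 genes, the 4 (Wfdc21, Ngp, Ccl5 and Camp) with WT replicate 2 left out; it moved the members' median log2 change to between -3.74 and -0.34, which was the value without WT replicate 1. Of 107 member changes under 12 alternatives 103 were below 0, and the other 4 were those without WT replicate 1 given above. Every fit with 1 library left out mixes genotype with replicate number. Between replicate numbers 4047 genes were called, and 2067 to 3215 with 1 library and the genotype term left out, an alternative added after seeing the data. For F4/80hi, 458 genes differed 2-fold, and 854 with a pseudocount of 0.1. Low depth limits Elane and Prtn3.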
